A study of Homo sapiens with 18 samples.

Results

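The comparison described here sets drug-tolerant persister cells (DTP) against the untreated cells they came from, in PC9, a human lung adenocarcinoma line whose growth depends on an activated epidermal growth factor receptor (EGFR). It takes 6 of the 18 libraries of the series, chosen by their titles, of which 3 are DTP and 3 parental_DMSO. The DTP cells outlived 8 days of 1 µM erlotinib, which inhibits EGFR, with drug and medium renewed every 3 days. The parental_DMSO cells were given only the solvent. The other 4 groups, of 3 libraries each, are DTP cells with 50 nM trichostatin A for 5 hours, cells after 24 hours in 1 µM erlotinib, cells after 72 hours in 50 µM carboplatin, and parental cells with the same trichostatin A treatment. RNA was polyA-selected, and ERCC spike-in RNA had been added by cell number. PC9 is a single line, the labels do not say that libraries a, b and c of a group were separate cultures, and p-values therefore reflect only how far these samples spread. A treatment note on the persisters refers to sorting by aldehyde dehydrogenase activity; no title does, so DTP is taken to be unsorted. The question is which secretory, metabolic, adhesion and transcription factor genes, beyond the interferon response, mark the surviving population.

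Persisters are a small fraction of a tumour cell population that outlives a targeted drug without a resistance mutation, divides slowly or not at all, and can return to sensitivity once the drug is removed. Inhibition of EGFR silences the RAS-ERK cascade, whose output includes the AP-1 factor FOSL1, the ETS factors ETV4 and ETV5 and their feedback inhibitors of the Sprouty and DUSP families. Cells that leave the cell cycle commonly change what they secrete, how they attach to matrix and neighbours, and how much nucleotide they make.

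Gene reads numbered 84650552, 81891900 and 76101016 in DTP a, b and c, against 80933355, 83466419 and 79287734 in parental_DMSO a, b and c. Within a group the log2 levels of any 2 libraries had a Pearson r across genes that rounds to 0.998 or above, while their counts differed by more than sampling noise, so that no library was a copy of another. Spike-in reads per 100 gene reads came to 0.549 ± 0.0177 in DTP and 0.534 ± 0.00805 in parental_DMSO (SD, n = 3 each; difference of 0.04 on the log2 scale, 2-sided exact permutation p = 0.3, where the smallest possible is 0.1). All 10 epithelial markers of the line were present, and their summed level was 5524 to 5630 CPM (gene reads scaled to a library of fixed size) in DTP and 5434 to 5676 CPM in parental_DMSO. Of 10 fibroblast markers 8 stayed under 1 CPM in all 6 libraries, with sums of 24.7 to 28.4 CPM in DTP and 4.50 to 4.52 CPM in parental_DMSO. Nearly all of this was COL1A1 (24.8 ± 2.02 CPM in DTP, against 4.42 ± 0.0397 CPM in parental_DMSO). Of 10 leukocyte markers 8 were under 1 CPM in all 6 libraries and 3 had no read, with sums of 17.99 to 18.25 CPM in DTP and 4.80 to 5.49 CPM in parental_DMSO. Of 10 endothelial markers 6 were under 1 CPM, with sums of 55.6 to 58.0 CPM in DTP and 40.5 to 44.5 CPM in parental_DMSO. A change of level in such bulk samples cannot tell fewer cells of a kind from less RNA per cell.

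The difference between DTP and parental cells touched most genes. Of 15928 genes tested, 6699 were higher and 6296 lower in DTP (42.1% and 39.5%; edgeR's quasi-likelihood test, Benjamini-Hochberg adjusted p under 0.05), so that 2933 did not pass. A stricter call, a change tested to exceed 1.5-fold, was met by 3606 genes in the higher direction and 2233 in the lower (22.6% and 14%), and counts of list members below use it unless said otherwise. The rule that picked called genes for naming asked that all 3 DTP values lie on one side of all 3 parental values. That separation in the library values given here was therefore set by the selection and is not a result. The large changes lay on the higher side, with 1300 called genes above a 4-fold rise and 184 beyond a 4-fold fall. The median log2 fold change of all genes was 0.03, with quartiles at -0.44 and 0.69. Reads in 1 group were enough for a gene to be tested, so a gene near 0 in parental cells could only be called higher. With a filter of at least 1 CPM in 3 libraries 5441 genes were higher and 5952 lower (median -0.039), so the overall split turned. The 4 programs were read through 38 gene lists (1320 of 1715 listed genes had enough reads to be tested), whose members are plotted by list.

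**Figure D1:**
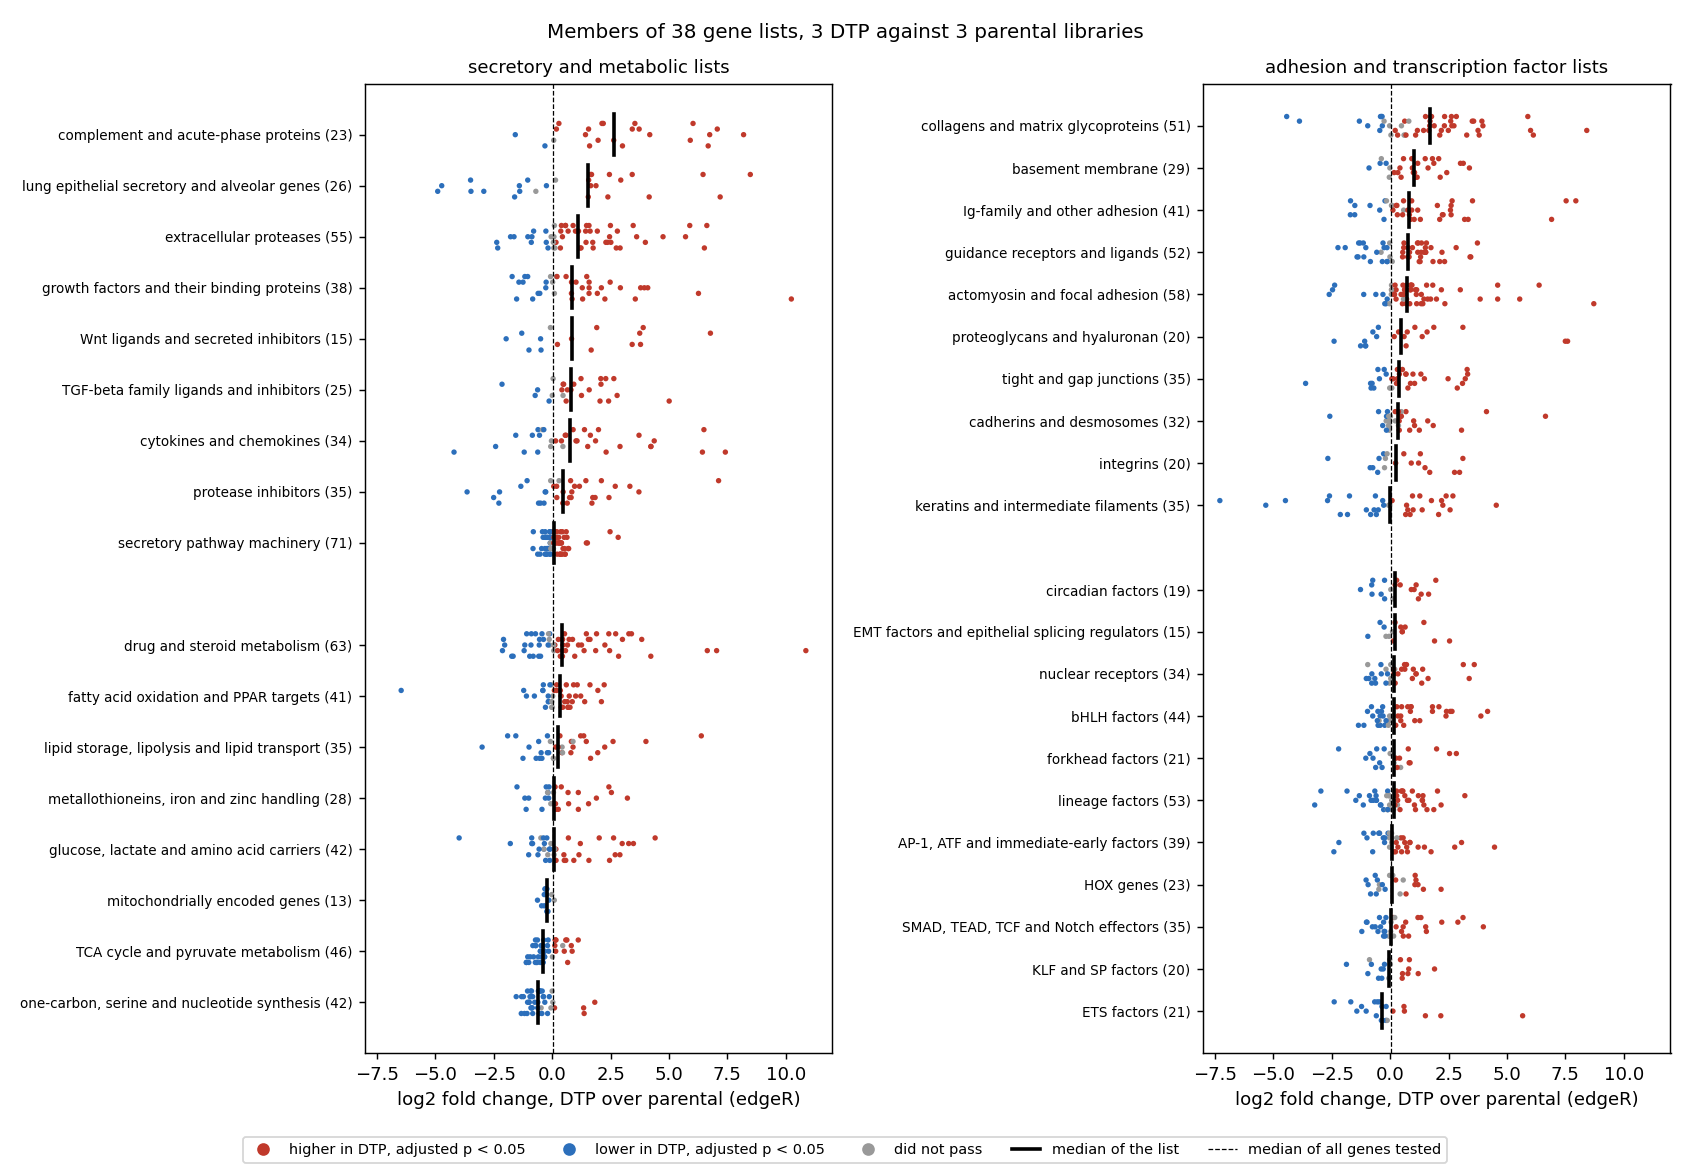
Each point is a tested member of a gene list, placed by its log2 fold change in DTP over parental_DMSO (x axis) and coloured by the adjusted p under 0.05; black bars are list medians, the dashed line is the median of all genes (0.03), and numbers in brackets count tested members. The complement list and the list of collagens and matrix glycoproteins lie farthest to the right (medians of 2.63 and 1.69), and the list of one-carbon, serine and nucleotide synthesis farthest to the left (-0.62).

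Outside the interferon list, the largest rise among named genes of 10 CPM or more in the higher group belonged to IGFBP5, a secreted protein that binds insulin-like growth factors outside the cell. IGFBP5 stood at 642, 664 and 640.0 CPM in DTP a, b and c, against 0.582, 0.499 and 0.526 CPM in parental_DMSO, a log2 fold change of 10.24 ± 0.051 (edgeR, adjusted p = 8.43e-20). It was under 1 CPM in every parental library and far above that in every DTP library. Its RefSeq promoter window (GRCh38, chr2:216695500-216695799, minus strand, 250 bases before to 50 after the start) is printed because this gene had the largest rise among the named genes of the 4 programs. Capitals mark a CATTCC, the core letters bound by TEAD factors, which 11.1% of 12125 promoter windows of tested genes also hold on either strand:
IGFBP5: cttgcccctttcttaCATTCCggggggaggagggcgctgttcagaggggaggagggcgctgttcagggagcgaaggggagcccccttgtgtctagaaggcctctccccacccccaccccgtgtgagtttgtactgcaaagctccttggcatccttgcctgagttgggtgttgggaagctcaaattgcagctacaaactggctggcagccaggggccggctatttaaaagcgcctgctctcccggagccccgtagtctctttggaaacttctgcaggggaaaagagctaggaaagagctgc
The match is a description of letters and not a site.

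Growth factors and their binding proteins were often higher: 21 of 38 tested members exceeded a 1.5-fold rise and 7 a fall of that size (55.3% and 18.4%), with a median of 0.84. IGFBP3, another binding protein of the same family, had 972, 959.8 and 973 CPM in DTP and 64.6, 61.7 and 62.1 CPM in parental_DMSO, a change of 3.95 ± 0.030. BDNF, a neurotrophin, had 15.7, 15.2 and 16.1 CPM in DTP, against 0.919, 0.873 and 0.960 CPM in parental_DMSO (4.09 ± 0.075), so that a transcript near 1 CPM reached over 15 CPM in each persister library. GAS6, the ligand of the TAM receptor kinases, rose by 2.48 ± 0.034, the heparin-binding MDK by 2.11 ± 0.045, PDGFB by 1.93 ± 0.039 and the precursor GRN by 1.58 ± 0.044. VEGFA went the other way: 48.8, 48.5 and 48.6 CPM in DTP and 160.5, 157 and 161 CPM in parental_DMSO, a change of -1.71 ± 0.026. VEGFB and ANGPT1 did not pass, with changes of 0.020 ± 0.044 and -0.068 ± 0.049.

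Complement and acute-phase genes formed the secretory list with the highest median, 2.63. Of 42 listed members 23 were tested, of which 18 rose by more than 1.5-fold and 1 fell (78.3% and 4.35%). Members with almost no parental reads, such as SERPING1, entered the test through their DTP reads and could only be called higher. How far this raised the median and the share of risers was not tested. C1S and C1R, the paired proteases that open the classical complement pathway, were both higher. C1S had 151, 146 and 146 CPM in DTP, against 1.20, 1.38 and 1.55 CPM in parental_DMSO (6.74 ± 0.052; edgeR, adjusted p = 3.48e-18). C1R had 22.1, 22.4 and 19.5 CPM in DTP, against 0.375, 0.287 and 0.315 CPM in parental_DMSO (6.03 ± 0.10). SERPING1, the inhibitor of both proteases, had 8.20, 8.88 and 7.66 CPM in DTP and 0.0647, 0.0997 and 0.0131 CPM in parental_DMSO, a change of 7.07 ± 0.21. Factor B of the alternative pathway (CFB) changed by 3.43 ± 0.041, the chaperone CLU by 2.13 ± 0.036 and C4BPB by 3.72 ± 0.060. The acute-phase genes SAA1 (2.63 ± 0.052) and SAA2 (3.01 ± 0.10) are near-identical copies whose reads may be split between them. CD46, the membrane regulator that protects cells from complement, did not pass, at 0.068 ± 0.035. The C1R window (GRCh38, chr12:7092396-7092695, minus strand) is printed as an example from this list and was not picked by rank. Capitals mark 3 CATTCC matches whose first bases lie 92, 80 and 70 bases before the start, the last of them on the other strand as GGAATG:
C1R: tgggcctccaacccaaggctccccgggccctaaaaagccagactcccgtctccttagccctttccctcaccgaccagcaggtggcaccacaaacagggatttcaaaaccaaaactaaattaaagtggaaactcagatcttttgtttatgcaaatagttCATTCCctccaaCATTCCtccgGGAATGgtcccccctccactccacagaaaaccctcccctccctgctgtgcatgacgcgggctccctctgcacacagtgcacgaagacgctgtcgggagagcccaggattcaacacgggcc
CATTCC occurred in 4 of 15 windows of this list (26.7%), beside 11.1% of all windows. The share was similar in the lists of airway and alveolar secretion (26.3%), basic helix-loop-helix factors (25%) and collagens and matrix glycoproteins (22.2%). It is thus not particular to complement genes, and the window of the matrix gene FN1 held no CATTCC.

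Ligands and inhibitors of the TGF-beta family rose in 13 of 25 tested cases and fell in 1 (52% and 4%; median 0.81). TGFB2 had 379, 374 and 383 CPM in DTP and 53.7, 56.5 and 55.0 CPM in parental_DMSO (2.78 ± 0.032). The activin subunits rose: INHBA had 244, 248 and 240.2 CPM in DTP and 49.4, 50.4 and 49.2 CPM in parental_DMSO (2.29 ± 0.029), INHBB changed by 0.93 ± 0.028 and the inhibin subunit INHA changed by 5.01 ± 0.13. The activin-binding protein FSTL3 (2.08 ± 0.027), the follistatin-like protein FSTL1 (2.42 ± 0.029) and the decoy receptor BAMBI (2.64 ± 0.056) rose beside them. The exception was NOG, the secreted BMP antagonist, at 5.39, 5.39 and 5.48 CPM in DTP and 24.2, 23.2 and 24.6 CPM in parental_DMSO (-2.15 ± 0.048). Of 15 tested Wnt ligands and secreted inhibitors 7 rose and 2 fell by more than 1.5-fold (46.7% and 13.3%), among them the ligands WNT4 (3.78 ± 0.10), WNT10A (3.43 ± 0.091) and WNT5A (1.67 ± 0.047). The inhibitors split. DKK1 was at 274, 272 and 281 CPM in DTP and 76.4, 72.2 and 71.8 CPM in parental_DMSO (1.91 ± 0.033), and SFRP1 was at 47.2, 49.4 and 49.0 CPM in DTP and 193, 193 and 184 CPM in parental_DMSO (-1.97 ± 0.031).

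Cytokines moved in both directions. IL32, an intracellular and secreted inflammatory cytokine, had 229.9, 235 and 231 CPM in DTP and 12.5, 11.6 and 13.1 CPM in parental_DMSO (4.22 ± 0.039). IL6 had 41.0, 38.5 and 42.1 CPM in DTP and 10.4, 10.0 and 10.3 CPM in parental_DMSO (1.98 ± 0.049). The interleukin-1 ligands were lower in every DTP library: IL1B had 2.45, 2.00 and 2.08 CPM in DTP and 41.1, 40.2 and 39.0 CPM in parental_DMSO (-4.20 ± 0.066). IL1A had 8.26, 7.87 and 7.84 CPM in DTP and 43.1, 42.9 and 42.3 CPM in parental_DMSO (-2.42 ± 0.045). LTB (4.37 ± 0.13), CXCL16 (1.52 ± 0.029) and TNFSF13 (1.38 ± 0.076) rose and IL11 fell (-1.20 ± 0.061), for 17 of 34 tested cytokines and chemokines higher and 5 lower (50% and 14.7%; median 0.74). IL1RL1, the receptor chain for interleukin-33, was among the genes with the largest falls of all, at 3.38, 3.38 and 3.57 CPM in DTP and 205, 211 and 200.4 CPM in parental_DMSO (-5.90 ± 0.039).

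Proteases of the extracellular space and their inhibitors both shifted. Of 55 tested proteases 30 rose and 8 fell by more than 1.5-fold (54.5% and 14.5%; median 1.09). MMP14, the membrane-bound collagenase, averaged 254 ± 3.08 CPM in DTP and 33.8 ± 0.831 CPM in parental_DMSO (SD, n = 3 each; 2.91 ± 0.031). MMP24, another membrane-type metalloprotease, had 39.97, 41.3 and 40.1 CPM in DTP and 0.608, 0.810 and 0.618 CPM in parental_DMSO (5.89 ± 0.076). MMP9 (2.49 ± 0.10), the lysosomal CTSH (2.74 ± 0.035) and the epithelial serine protease PRSS8 (2.37 ± 0.065) were higher too, while MMP1 fell (-2.33 ± 0.10). Among 35 tested inhibitors 16 rose and 6 fell (45.7% and 17.1%; median 0.47). TIMP2, an inhibitor of metalloproteases, had 314, 311 and 309.8 CPM in DTP and 71.4, 71.8 and 73.8 CPM in parental_DMSO (2.11 ± 0.030). SERPINB2 (3.33 ± 0.037) and the inhibitor of tissue factor TFPI (3.71 ± 0.13) rose, and the elastase inhibitors PI3 (-2.25 ± 0.038) and SERPINB1 (-2.28 ± 0.027) fell; reads of the clade B serpins may be shared among related copies.

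Genes of airway and alveolar secretion moved in both directions, with 14 of 26 tested members higher and 9 lower by more than 1.5-fold (53.8% and 34.6%). MUC1 had 23.0, 22.0 and 21.5 CPM in DTP and 1.23, 0.997 and 1.52 CPM in parental_DMSO (4.15 ± 0.091), and MUC20 (2.94 ± 0.050) and MUC4 (1.88 ± 0.067) rose with it. CEACAM6, a surface glycoprotein, had 149, 146 and 140.0 CPM in DTP and 1089.8, 1105 and 1111 CPM in parental_DMSO (-2.93 ± 0.029); CEACAM5 (-4.73 ± 0.11) fell too, and the 2 genes are close copies. The machinery that carries cargo from the endoplasmic reticulum through the Golgi moved little, with a median of 0.07 over 71 members, 7 above a 1.5-fold rise and 2 below a fall (9.86% and 2.82%). Members that rose included KDELR3, which retrieves escaped residents of the endoplasmic reticulum, at 75.7, 78.3 and 77.0 CPM in DTP and 14.1, 14.0 and 13.3 CPM in parental_DMSO (2.48 ± 0.036), and SEC24D, a cargo adaptor of COPII vesicles (1.51 ± 0.029). Over all 322 tested secretory genes 143 rose and 41 fell by more than 1.5-fold (44.4% and 12.7%).

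**Figure D2:**
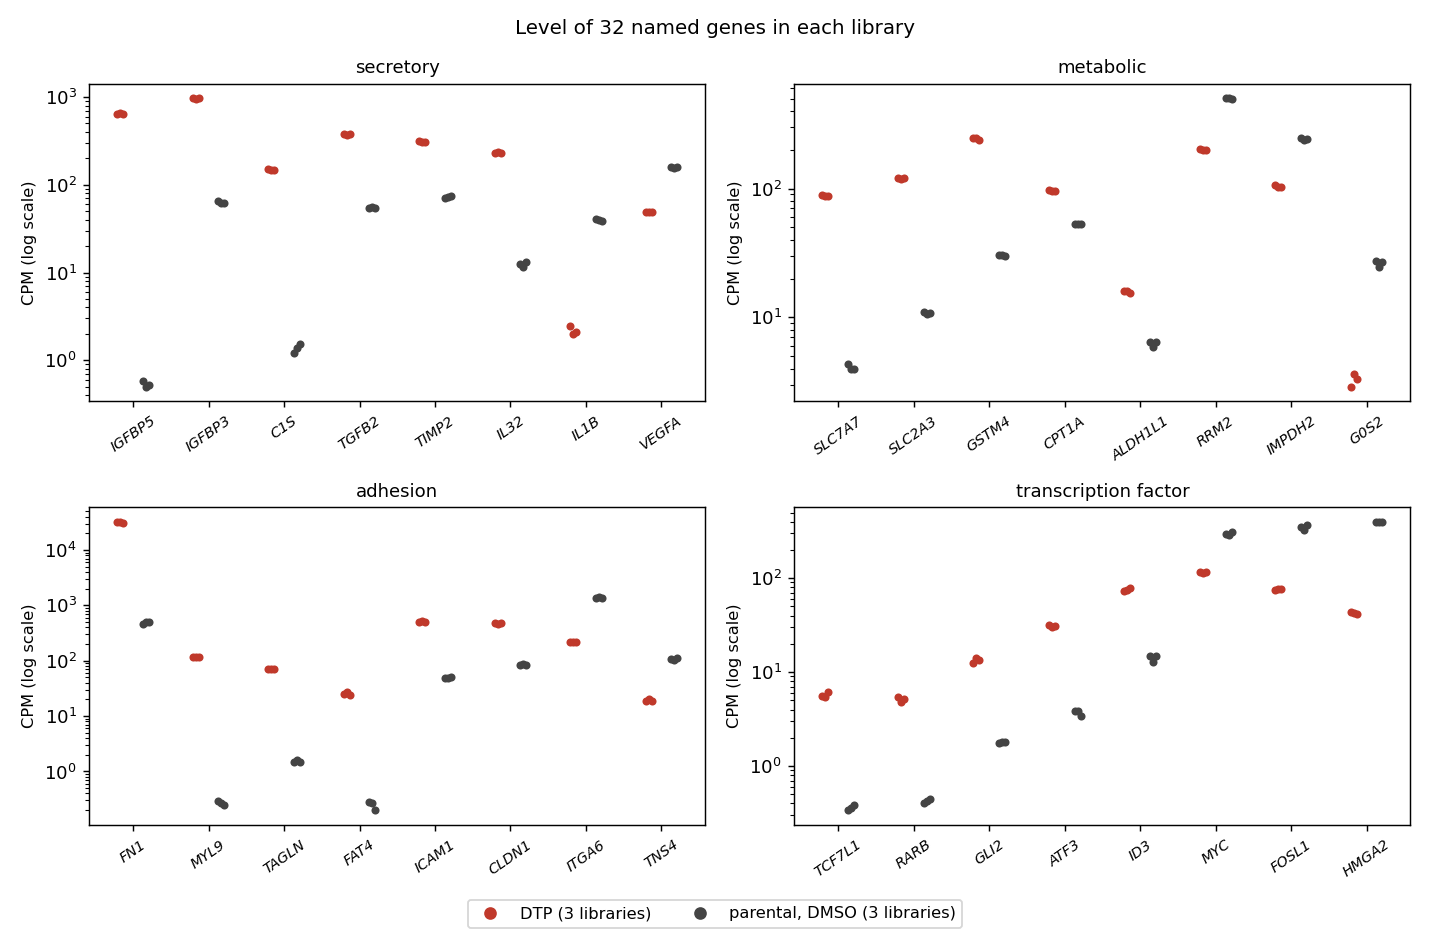
Level of 32 named genes, 8 per program, in CPM on a log axis, with each of the 3 DTP libraries (red, left) beside each of the 3 parental_DMSO libraries (dark, right). The libraries of a group nearly coincide for every gene shown. The groups do not overlap, which was a condition for naming these genes. IGFBP5 shows the widest gap of the secretory panel.

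Metabolic genes showed no common direction, with 73 of 310 tested members higher and 64 lower by more than 1.5-fold (23.5% and 20.6%), but the lists within them differed. One-carbon, serine and nucleotide synthesis was the list with the lowest median, -0.62: 20 of 42 members fell and 2 rose (47.6% and 4.76%). Without a fold limit 34 were lower and 4 higher (81% and 9.52%), where 39.5% of all genes were lower and 42.1% higher. RRM2, the regulated subunit of ribonucleotide reductase, had 201, 198 and 199.5 CPM in DTP and 501, 504 and 492 CPM in parental_DMSO (-1.32 ± 0.027). The purine enzymes IMPDH2 (106, 103 and 102 CPM in DTP, 245, 239.7 and 244 CPM in parental_DMSO; -1.23 ± 0.029), PAICS (-1.05 ± 0.029) and GMPS (-1.07 ± 0.031) and the pyrimidine enzyme DHODH (-1.31 ± 0.053) were lower as well. ALDH1L1, which oxidises formyl-tetrahydrofolate, went the other way, at 15.9, 16.1 and 15.4 CPM in DTP and 6.38, 5.83 and 6.45 CPM in parental_DMSO (1.35 ± 0.054). PHGDH, the first enzyme of serine synthesis, did not pass (0.028 ± 0.028), nor did TK1 (-0.052 ± 0.038) or RRM2B (-0.0021 ± 0.039), while the proliferation marker MKI67 was lower in the same libraries (-1.10 ± 0.041).

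The TCA cycle and pyruvate list was lower to a smaller degree, with a median of -0.38, 13 of 46 tested members below a 1.5-fold fall and 4 above a rise (28.3% and 8.70%). IDH3A, the catalytic subunit of the NAD-dependent isocitrate dehydrogenase, had 55.4, 54.2 and 56.6 CPM in DTP and 113, 116 and 114 CPM in parental_DMSO (-1.05 ± 0.027), with PC (-1.11 ± 0.052), DLAT (-0.83 ± 0.026) and the kinase PDK1 (-1.10 ± 0.041) also lower. IDH2, the NADP-dependent enzyme of the same step, was higher, at 61.3, 62.2 and 60.3 CPM in DTP and 34.4, 32.5 and 34.7 CPM in parental_DMSO (0.86 ± 0.034), as was PCK2 (1.12 ± 0.047), which makes phosphoenolpyruvate in mitochondria. Of the 13 mitochondrially encoded genes 11 were lower without a fold limit (84.6%, beside 39.5% of all genes). None passed the 1.5-fold test (median -0.23), and ND2, a subunit of complex I, changed most (-0.63 ± 0.041). ND5 (-0.019 ± 0.045) and ND6 (0.091 ± 0.047) did not pass.

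Of 41 tested fatty acid oxidation genes 12 were above a 1.5-fold rise and 4 below a fall (29.3% and 9.76%; median 0.35), shares near the 22.6% and 14% of all genes. CPT1A, the gatekeeper of mitochondrial fatty acid import, had 97.7, 96.4 and 95.4 CPM in DTP and 53.1, 53.2 and 53.2 CPM in parental_DMSO (0.86 ± 0.026). Among peroxisomal members EHHADH (2.11 ± 0.080), CROT (1.39 ± 0.054) and ACAA1 (0.92 ± 0.041) rose, while ACOX2, an oxidase of branched-chain substrates, had 0.0340, 0.105 and 0.0252 CPM in DTP and 4.88, 4.92 and 5.23 CPM in parental_DMSO (-6.46 ± 0.23). PPARA rose (0.99 ± 0.038) and PPARG fell (-1.02 ± 0.027), the nuclear receptors for fatty acids. Lipid storage genes split 11 higher to 6 lower of 35 (31.4% and 17.1%), beside the same 22.6% and 14% of all genes. The triglyceride lipase PNPLA2 rose (1.35 ± 0.070) and its inhibitor G0S2 fell, at 2.89, 3.64 and 3.30 CPM in DTP and 27.2, 24.4 and 26.9 CPM in parental_DMSO (-3.00 ± 0.073). The lipoprotein receptors LRP1 (2.25 ± 0.061) and VLDLR (1.65 ± 0.045) rose, and the fatty acid carrier FABP5 (-1.91 ± 0.043) and the cholesterol exporter ABCA1 (-1.56 ± 0.049) fell.

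Carriers for sugars and amino acids rose in 13 and fell in 6 of 42 tested cases (31% and 14.3%), beside 22.6% and 14% of all genes. SLC7A7, a chain of the cationic amino acid exchanger, had 88.4, 86.8 and 86.8 CPM in DTP and 4.36, 3.98 and 3.996 CPM in parental_DMSO (4.41 ± 0.043). SLC2A3, the glucose transporter GLUT3, had 121, 119 and 119.8 CPM in DTP and 10.9, 10.5 and 10.8 CPM in parental_DMSO (3.48 ± 0.031), and its relatives SLC2A10 (2.70 ± 0.057), SLC2A12 (2.46 ± 0.080) and SLC2A6 (1.57 ± 0.067) were higher too. SLC7A5, the large neutral amino acid carrier, did not pass (0.085 ± 0.050). Enzymes and exporters of drug and steroid metabolism rose in 23 and fell in 11 of 63 cases (36.5% and 17.5%). The glutathione transferases GSTM4 (247, 246 and 239.7 CPM in DTP, 30.7, 30.4 and 29.9 CPM in parental_DMSO; 3.01 ± 0.029), GSTM3 (1.90 ± 0.031) and GSTM2 (4.22 ± 0.12) rose, although reads may be split among these close copies. The aldo-keto reductase AKR1B10 had 159, 151 and 157 CPM in DTP and 692, 683 and 662 CPM in parental_DMSO (-2.13 ± 0.031), and the exporter ABCC2 fell by a like amount (-2.08 ± 0.029).

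Metal handling genes rose in 8 and fell in 4 of 28 tested cases (28.6% and 14.3%), shares near the 22.6% and 14% of all genes. The iron exporter SLC40A1 (2.54 ± 0.068) and the ferric reductases CYBRD1 (1.89 ± 0.029) and STEAP4 (2.43 ± 0.062) were higher, STEAP1 (-1.17 ± 0.054) and the zinc importer SLC39A10 (-1.51 ± 0.034) lower. Metallothionein MT2A, a zinc and copper buffer, had 92.3, 97.1 and 94.6 CPM in DTP and 42.7, 39.6 and 48.3 CPM in parental_DMSO (1.12 ± 0.054), and its close copy MT1X also rose (1.56 ± 0.082).

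Adhesion was the program with the largest share of risers, 181 of 373 tested genes above a 1.5-fold rise and 48 below a fall (48.5% and 12.9%). Collagens and matrix glycoproteins led, with 32 of 51 higher and 3 lower (62.7% and 5.88%; median 1.69). FN1, the fibronectin that integrins bind, had 31518, 32405 and 30884 CPM in DTP, against 469.6, 502 and 499 CPM in parental_DMSO (6.01 ± 0.028; edgeR, adjusted p = 5.18e-20). The fibrillin FBN1 (3.93 ± 0.058), COL16A1 (3.97 ± 0.074), the collagen crosslinker LOXL4 (3.76 ± 0.033), EFEMP1 (3.81 ± 0.066) and COL5A1 (133, 147 and 139 CPM in DTP, 11.5, 11.2 and 12.4 CPM in parental_DMSO; 3.57 ± 0.046) rose with it. Falls included COL6A3, at 0.476, 0.491 and 0.629 CPM in DTP and 11.4, 11.3 and 11.6 CPM in parental_DMSO (-4.43 ± 0.099), and the transmembrane COL13A1 (-3.88 ± 0.061); COL6A2, a partner chain of COL6A3, did not pass (0.032 ± 0.062). COL1A1, which carried the fibroblast marker sum, rose in the same libraries (2.49 ± 0.066), and the part of other cells in the matrix genes was not tested.

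Basement membrane genes rose in 18 of 29 tested cases and fell in 1 (62.1% and 3.45%; median 1.03). Chains of type IV collagen rose: COL4A5 had 312, 316 and 309 CPM in DTP and 57.4, 59.5 and 58.0 CPM in parental_DMSO (2.42 ± 0.031), with COL4A4 at 3.39 ± 0.059 and COL4A3 at 3.13 ± 0.11. The proteoglycan HSPG2 (perlecan) had 243, 289.6 and 255 CPM in DTP and 54.5, 56.9 and 67.2 CPM in parental_DMSO (2.14 ± 0.074), and LAMB2 rose (1.81 ± 0.042) while LAMB1 did not pass (-0.037 ± 0.029). Their receptors differed. ITGA6, the integrin chain that binds laminin, had 218, 219.8 and 215 CPM in DTP and 1362, 1422 and 1361 CPM in parental_DMSO (-2.67 ± 0.026), and its partner ITGB4 did not pass (-0.13 ± 0.059). Among alpha-v integrin chains ITGAV rose, at 359, 354 and 365 CPM in DTP and 142, 152 and 145 CPM in parental_DMSO (1.29 ± 0.032). Its partners ITGB8 (2.76 ± 0.042), ITGB3 (2.97 ± 0.058) and ITGB6 (1.22 ± 0.030) rose as well, while below the 1.5-fold test ITGB1 was higher (0.23 ± 0.027) and ITGB5 lower (-0.48 ± 0.027). Over 20 tested integrins 7 rose and 3 fell by more than 1.5-fold (35% and 15%), beside 22.6% and 14% of all genes.

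Actomyosin and focal adhesion genes rose in 31 and fell in 4 of 58 tested cases (53.4% and 6.90%; median 0.71). MYL9, the regulatory light chain of contractile myosin, had 114, 118 and 115 CPM in DTP and 0.298, 0.274 and 0.250 CPM in parental_DMSO (8.72 ± 0.055; edgeR, adjusted p = 6.73e-19). It was under 1 CPM in every parental library and above 100 CPM in every persister library. TAGLN, an actin-binding protein of contractile cells, had 70.7, 70.4 and 71.5 CPM in DTP and 1.48, 1.60 and 1.47 CPM in parental_DMSO (5.55 ± 0.051), and the kinase MYLK (4.60 ± 0.099), which phosphorylates this light chain, and CALD1 (2.19 ± 0.027) rose too. ACTG2 rose by 4.60 ± 0.063, with reads that other actin genes may share. Falls included TNS4, at 19.1, 20.1 and 19.1 CPM in DTP and 107, 102 and 113 CPM in parental_DMSO (-2.47 ± 0.039), and the integrin activator FERMT1 (-2.38 ± 0.035), both of focal adhesions. The abundant ACTN4 (0.058 ± 0.042), TLN1 (0.053 ± 0.044) and ACTG1 (0.047 ± 0.024) did not pass.

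Of 32 tested cadherins and desmosome genes 8 rose and 1 fell by more than 1.5-fold (25% and 3.12%), where 22.6% of all genes rose and 14% fell. CDH1, the epithelial cadherin, had 479.9, 479 and 473 CPM in DTP and 294, 302 and 300.0 CPM in parental_DMSO (0.68 ± 0.026), and the plakoglobin JUP rose (1.61 ± 0.047). FAT4, an atypical cadherin, had 25.5, 26.9 and 24.1 CPM in DTP and 0.285, 0.274 and 0.197 CPM in parental_DMSO (6.65 ± 0.096), and its relative FAT3 rose (4.12 ± 0.13) while FAT1 did not pass (-0.070 ± 0.036). Tight and gap junction genes rose in 14 and fell in 4 of 35 cases (40% and 11.4%). CLDN1 had 478, 471 and 473 CPM in DTP and 83.5, 86.3 and 85.2 CPM in parental_DMSO (2.48 ± 0.029), with TJP3 (2.87 ± 0.12) and CLDN4 (0.98 ± 0.040) higher and the connexin GJB2 (-0.77 ± 0.041) lower. Adhesion proteins of the immunoglobulin family and their like rose in 23 and fell in 5 of 41 (56.1% and 12.2%; median 0.82). ICAM1, the ligand of leukocyte integrins, had 504, 512 and 496 CPM in DTP and 49.0, 49.5 and 51.2 CPM in parental_DMSO (3.34 ± 0.032). CD24 had 1057, 1038 and 1074 CPM in DTP and 176, 175 and 168 CPM in parental_DMSO (2.61 ± 0.028). MCAM (2.65 ± 0.032), BCAM (2.27 ± 0.062), L1CAM (3.19 ± 0.10) and NCAM1 (2.12 ± 0.052) were also higher.

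Keratins moved in both directions, with 15 of 35 tested intermediate filament genes higher and 11 lower (42.9% and 31.4%). KRT17 had 24.9, 25.5 and 24.8 CPM in DTP and 1.01, 1.03 and 1.18 CPM in parental_DMSO (4.54 ± 0.064), and KRT80 rose (1.37 ± 0.032). KRT5 fell (-1.83 ± 0.030), as did KRT6B, at 2.92, 2.43 and 2.34 CPM in DTP and 59.0, 56.5 and 57.2 CPM in parental_DMSO (-4.48 ± 0.066), and its near-identical copy KRT6A (-2.60 ± 0.050). The keratins of simple epithelium moved by less, with KRT7 (0.75 ± 0.025) and KRT19 (0.66 ± 0.031) higher, and KRT18 (-0.69 ± 0.027) and, below the 1.5-fold test, KRT8 (-0.28 ± 0.026) lower. Guidance receptors and ligands rose in 24 and fell in 10 of 52 (46.2% and 19.2%; median 0.76). SEMA5A had 126, 127 and 123 CPM in DTP and 12.1, 10.5 and 11.8 CPM in parental_DMSO (3.45 ± 0.044). SEMA3A rose by 3.73 ± 0.15 and NTN1 by 2.22 ± 0.068. The semaphorin and VEGF coreceptor NRP2 had 21.1, 21.6 and 20.6 CPM in DTP and 95.3, 101 and 101 CPM in parental_DMSO (-2.23 ± 0.034). Proteoglycan and hyaluronan genes split 9 higher to 6 lower of 20 (45% and 30%), with the hyaluronan synthase HAS3 at 9.75, 8.64 and 9.87 CPM in DTP and 49.4, 50.0 and 49.9 CPM in parental_DMSO (-2.40 ± 0.052) and SDC1 lower (-1.05 ± 0.036).

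Transcription factors as a group sat close to the background, 78 of 315 tested genes above a 1.5-fold rise and 46 below a fall (24.8% and 14.6%; median 0.09), so single factors are described. FOSL1, the AP-1 member that ERK stabilises, had 74.8, 76.7 and 77.0 CPM in DTP and 353, 329 and 364 CPM in parental_DMSO (-2.19 ± 0.039). Within the same list ATF3, a stress-induced repressor, had 31.5, 30.4 and 31.0 CPM in DTP and 3.86, 3.86 and 3.44 CPM in parental_DMSO (3.06 ± 0.055). JUND (1.75 ± 0.044) and JUNB (1.20 ± 0.091) rose, while JUN (0.062 ± 0.032) and ATF4 (-0.026 ± 0.026) did not pass. In all, 9 of 39 tested members rose and 6 fell by more than 1.5-fold (23.1% and 15.4%). The ETS list was the transcription factor list with the lowest median, -0.35: 6 of 21 tested members fell and 3 rose (28.6% and 14.3%). The ERK targets ETV4 (17.1, 17.2 and 17.3 CPM in DTP, 55.1, 53.3 and 57.3 CPM in parental_DMSO; -1.69 ± 0.040) and ETV5 (-1.22 ± 0.038) were lower. The epithelial factor ELF3 was higher, at 101, 97.6 and 103 CPM in DTP and 21.5, 22.5 and 23.2 CPM in parental_DMSO (2.17 ± 0.034). The feedback inhibitors SPRY4, at 5.02, 5.37 and 5.47 CPM in DTP and 79.5, 78.0 and 80.1 CPM in parental_DMSO (-3.91 ± 0.042), SPRY1 (-3.12 ± 0.063) and DUSP6 (-3.48 ± 0.054) were among the 20 lower genes with the largest change.

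The architectural factor HMGA2 had 43.6, 42.1 and 41.6 CPM in DTP and 398, 399 and 398 CPM in parental_DMSO (-3.23 ± 0.032), and its relative HMGA1 fell by less (-1.47 ± 0.042). Of 53 tested lineage factors 14 rose and 9 fell (26.4% and 17%). SOX4 was at 154, 153 and 157 CPM in DTP and 34.4, 34.1 and 34.0 CPM in parental_DMSO (2.18 ± 0.027), and SOX7 was at 7.10, 7.03 and 6.55 CPM in DTP and 52.1, 52.8 and 56.8 CPM in parental_DMSO (-2.97 ± 0.052). The basic helix-loop-helix list rose in 14 and fell in 5 of 44 cases (31.8% and 11.4%). MYC had 115, 114 and 116 CPM in DTP and 292, 286 and 307 CPM in parental_DMSO (-1.36 ± 0.033). MXD4, which competes with MYC for their shared partner MAX, had 16.3, 18.03 and 17.2 CPM in DTP and 3.59, 2.73 and 3.52 CPM in parental_DMSO (2.39 ± 0.084). MAX itself did not pass (-0.048 ± 0.029). The inhibitor of differentiation ID3 rose, at 72.4, 75.3 and 79.2 CPM in DTP and 15.0, 12.9 and 14.8 CPM in parental_DMSO (2.41 ± 0.054). Forkhead factors rose in 5 and fell in 3 of 21 cases (23.8% and 14.3%). FOXO4 (1.99 ± 0.085) and FOXO1 (0.81 ± 0.047), which AKT keeps out of the nucleus, were higher, and FOXQ1 (-2.21 ± 0.049) and the cell cycle factor FOXM1 (-0.87 ± 0.035) lower.

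Among 34 tested nuclear receptors 9 rose and 4 fell (26.5% and 11.8%). The retinoic acid receptor RARB had 5.48, 4.80 and 5.19 CPM in DTP and 0.401, 0.424 and 0.447 CPM in parental_DMSO (3.60 ± 0.12), the mineralocorticoid receptor NR3C2 rose by 3.13 ± 0.11, and VDR fell (-0.91 ± 0.048). Effectors of the SMAD, TEAD, TCF and Notch pathways rose in 9 and fell in 5 of 35 cases (25.7% and 14.3%). TCF7L1, a repressor of Wnt target genes, had 5.57, 5.49 and 6.15 CPM in DTP and 0.337, 0.362 and 0.381 CPM in parental_DMSO (3.99 ± 0.12), and the Hedgehog effector GLI2 had 12.4, 14.2 and 13.6 CPM in DTP and 1.76, 1.81 and 1.81 CPM in parental_DMSO (2.90 ± 0.078). The TEAD cofactor VGLL3 rose (2.21 ± 0.054). TEAD2 rose (1.32 ± 0.039), TEAD1 did not pass (-0.020 ± 0.031), and the TEAD coactivator WWTR1 (TAZ) fell (-1.21 ± 0.027). Of 20 KLF and SP factors 4 rose and 3 fell (20% and 15%), with KLF8 higher (1.90 ± 0.052) and KLF4 lower (-0.96 ± 0.045); of 23 HOX genes 3 rose and 3 fell (13% each).

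Of the 15 tested factors of epithelial-mesenchymal transition and epithelial splicing, 3 were above a 1.5-fold rise and 1 below a fall (20% and 6.67%), beside 22.6% and 14% of all genes. The transition drivers SNAI1 (1.496, 1.40 and 1.76 CPM in DTP, 1.80, 1.61 and 1.87 CPM in parental_DMSO; -0.18 ± 0.13), ZEB1 (-0.047 ± 0.13) and TWIST1 (0.10 ± 0.20) did not pass, and all 3 were near or under 2 CPM in both groups. The epithelial regulators GRHL2 (0.52 ± 0.025) and ESRP1 (0.21 ± 0.030) were higher without reaching the 1.5-fold test, and ESRP2 (-0.26 ± 0.038) was lower on the same terms. OVOL1 (-0.43) was lower and RBFOX2 (0.52) higher, also without reaching the 1.5-fold test. The 3 members that rose and the 1 that fell by that test are not named in this paragraph. The members named here therefore do not stand for the whole list. CDH1 and GRHL2 were higher in the same libraries as the matrix and contractile genes, and whether the cells underwent a transition was not tested.

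Circadian factors formed a small list with changes in both directions. The clock loop is driven by the activators CLOCK, NPAS2 and BMAL1, which bind the E-box CACGTG in the genes of their own repressors, the PER and CRY proteins. Of 19 tested members 7 rose and 4 fell by more than 1.5-fold (36.8% and 21.1%), beside 22.6% and 14% of all genes. BMAL1 had 9.52, 9.28 and 8.99 CPM in DTP and 22.4, 22.4 and 22.2 CPM in parental_DMSO (-1.27 ± 0.044), and NPAS2 (-0.75 ± 0.036) and, below the 1.5-fold test, CLOCK (-0.24 ± 0.042) and BMAL2 (-0.39 ± 0.031) were lower too. The repressor BHLHE40 (DEC1) had 54.7, 53.4 and 52.5 CPM in DTP and 14.3, 13.1 and 14.1 CPM in parental_DMSO (1.95 ± 0.044). PER1 had 8.39, 9.31 and 8.75 CPM in DTP and 3.57, 3.22 and 3.76 CPM in parental_DMSO (1.33 ± 0.079). CRY2 (1.03 ± 0.051), CIART (1.21 ± 0.098) and the output factors DBP (1.65 ± 0.11) and TEF (0.90 ± 0.043) were higher. PER2 (0.11 ± 0.075) and NR1D2 (0.026 ± 0.031) did not pass, and NR1D1, another repressor of BMAL1, was lower (-0.79 ± 0.073). Windows of 6 of the 19 genes held CACGTG (31.6%), beside 9.84% of 12125 windows of tested genes: BHLHE40, BHLHE41, CIART, PER1 and TEF, which were higher in DTP, and TIMELESS, which was lower (-0.78 ± 0.033). The BMAL1 window held none. The same letters stood in 7 of 34 windows (20.6%) of the one-carbon, serine and nucleotide synthesis list, most of whose members were lower.

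The 4 E-box windows whose genes passed the 1.5-fold rise are printed from RefSeq (GRCh38), with CACGTG in capitals, to show how many matches each holds and where. PER1 is chr17:8152355-8152654 on the minus strand, TEF chr22:41367205-41367504, CIART chr1:150282304-150282603 and BHLHE40 chr3:4979187-4979486 on the plus strand:
PER1: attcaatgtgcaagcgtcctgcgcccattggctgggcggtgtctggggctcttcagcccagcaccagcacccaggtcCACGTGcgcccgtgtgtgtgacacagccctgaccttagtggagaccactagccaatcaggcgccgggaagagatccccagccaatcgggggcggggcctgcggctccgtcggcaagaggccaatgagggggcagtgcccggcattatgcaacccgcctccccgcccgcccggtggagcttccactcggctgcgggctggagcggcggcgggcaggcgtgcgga
TEF: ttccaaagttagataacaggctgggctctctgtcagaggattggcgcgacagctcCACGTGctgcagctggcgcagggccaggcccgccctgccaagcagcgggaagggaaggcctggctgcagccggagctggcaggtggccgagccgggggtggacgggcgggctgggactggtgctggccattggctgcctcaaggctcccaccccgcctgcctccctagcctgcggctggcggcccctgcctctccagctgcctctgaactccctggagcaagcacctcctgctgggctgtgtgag
CIART: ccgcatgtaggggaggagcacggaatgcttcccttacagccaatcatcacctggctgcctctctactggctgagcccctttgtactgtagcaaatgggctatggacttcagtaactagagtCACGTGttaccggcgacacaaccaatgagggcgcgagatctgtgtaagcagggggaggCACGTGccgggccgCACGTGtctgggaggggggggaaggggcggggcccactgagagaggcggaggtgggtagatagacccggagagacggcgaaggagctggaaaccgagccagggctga
BHLHE40: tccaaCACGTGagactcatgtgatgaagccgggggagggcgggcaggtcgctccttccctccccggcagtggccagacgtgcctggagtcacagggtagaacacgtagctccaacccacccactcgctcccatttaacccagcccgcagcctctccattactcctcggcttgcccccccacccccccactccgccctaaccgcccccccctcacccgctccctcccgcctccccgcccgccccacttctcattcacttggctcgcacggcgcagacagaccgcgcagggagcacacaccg
The match in PER1 begins 173 bases before the start, that in TEF 195 and that in BHLHE40 245 bases before it, and CIART holds 3, beginning 129, 71 and 57 bases before its start.

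**Figure D3:**
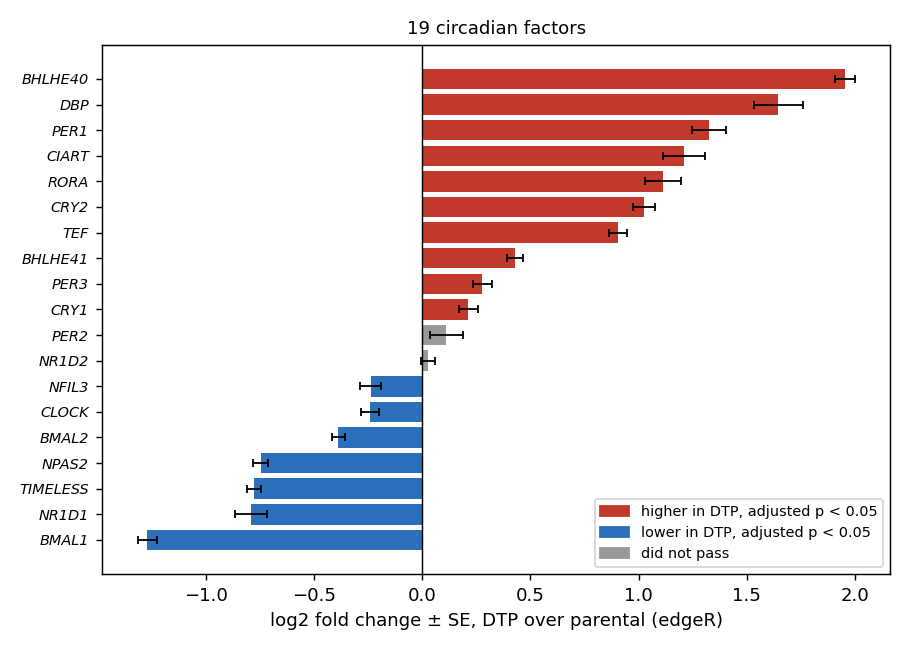
Log2 fold change of the 19 tested circadian factors in DTP over parental_DMSO, with bars for the edgeR estimate and whiskers for its standard error (3 libraries per group). BHLHE40 (1.95 ± 0.044) is at the top and BMAL1 (-1.27 ± 0.044) at the bottom; grey bars did not pass.

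The interferon list serves as a scale for these programs. Of 115 tested members 101 rose and 1 fell by more than 1.5-fold (87.8% and 0.870%), with a median of 2.91. The letters GAAA, any 2 bases and again GAAA approximate the element bound by the interferon-activated complex ISGF3. They stood in 48 of 83 windows of this list (57.8%) on either strand, beside 2.84% of all windows. In the complement list they stood in 1 of 15 windows (6.67%), and whether interferon raised the complement genes was not tested. The IFI6 window (GRCh38, chr1:27672143-27672442, minus strand) is printed as a member with several matches, with 3 in capitals beginning 156, 115 and 93 bases before the start. IFI6 itself had 111, 109.8 and 115 CPM in DTP and 0.0647, 0.0499 and 0.0657 CPM in parental_DMSO (10.83 ± 0.072).
IFI6: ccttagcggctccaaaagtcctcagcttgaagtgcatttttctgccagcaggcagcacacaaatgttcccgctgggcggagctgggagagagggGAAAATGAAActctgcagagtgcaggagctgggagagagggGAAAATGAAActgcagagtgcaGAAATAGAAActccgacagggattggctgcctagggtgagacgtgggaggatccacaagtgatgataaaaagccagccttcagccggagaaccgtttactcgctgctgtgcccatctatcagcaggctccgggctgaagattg

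Outside the lists, the neuronal adhesion protein TENM2 had 17.8, 17.4 and 16.8 CPM in DTP and 0.0388, 0.0374 and 0.105 CPM in parental_DMSO (8.14 ± 0.14). The ubiquitin-like modifier UBD (8.60 ± 0.093), the pattern receptor CLEC7A (6.88 ± 0.12), the sodium channel SCN9A (6.42 ± 0.18) and the membrane anchor ANK2 (5.67 ± 0.094) were also among the 20 largest rises. So was the tubulin TUBA1A, at 144, 142 and 141 CPM in DTP and 1.92, 1.86 and 1.79 CPM in parental_DMSO (6.26 ± 0.040), whose reads related tubulin genes may share. The neurotensin receptor NTSR1 had 0.476, 0.527 and 0.642 CPM in DTP and 53.3, 48.0 and 56.3 CPM in parental_DMSO (-6.59 ± 0.096), the largest of the 20 named falls. The long noncoding RNA CCAT1 (-5.24 ± 0.086), the interleukin-13 decoy receptor IL13RA2 (-5.004 ± 0.13), the acyltransferase GPAT3 (-3.20 ± 0.030) and the calcium-binding S100A9 (-3.29 ± 0.040) were also among these 20.

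Cells after 24 hours of the same dose give an intermediate point for these genes; their comparison with parental cells shares the parental libraries, so levels are given in time order without a test. Several leading genes stood between both ends at 24 hours. Levels in DMSO, after 24 hours and after 8 days were 0.536 ± 0.0428, 173 ± 0.646 and 649 ± 13.2 CPM for IGFBP5 (mean ± SD, n = 3). They were 490.3 ± 18.005, 1645 ± 11.5 and 31602 ± 764 CPM for FN1, and 0.274 ± 0.0240, 7.92 ± 0.0422 and 116 ± 1.77 CPM for MYL9. Another set was lower at 24 hours than at either end: INHBA had 49.7 ± 0.660, 25.9 ± 0.4995 and 244 ± 3.66 CPM, and MT2A 43.5 ± 4.41, 8.95 ± 0.710 and 94.7 ± 2.37 CPM. FOSL1 had 349 ± 17.9, 15.1 ± 0.128 and 76.2 ± 1.22 CPM, and RRM2 499 ± 6.32, 29.6 ± 1.15 and 199 ± 1.63 CPM. IL1B had 40.1 ± 1.07, 0.479 ± 0.120 and 2.18 ± 0.240 CPM, and HMGA2 398 ± 0.273, 38.05 ± 0.455 and 42.5 ± 1.04 CPM. The genes MUC1, ELF3 and CEACAM6 were highest at 24 hours. MUC1 had 1.25 ± 0.264, 241 ± 7.51 and 22.2 ± 0.770 CPM, and ELF3 22.4 ± 0.840, 667 ± 10.5 and 101 ± 2.64 CPM. CEACAM6 had 1102 ± 10.8, 1864 ± 44.4 and 145 ± 4.45 CPM, the last ending below its starting level. These groupings were made after the values were seen, and in each case the ranges of the 3 groups of libraries did not overlap. Spike-in reads per 100 gene reads were 0.699 to 0.760 at 24 hours, 0.524 to 0.539 in DMSO and 0.530 to 0.565 in DTP. The CPM levels of this time course are not corrected for that difference.

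**Figure D4:**
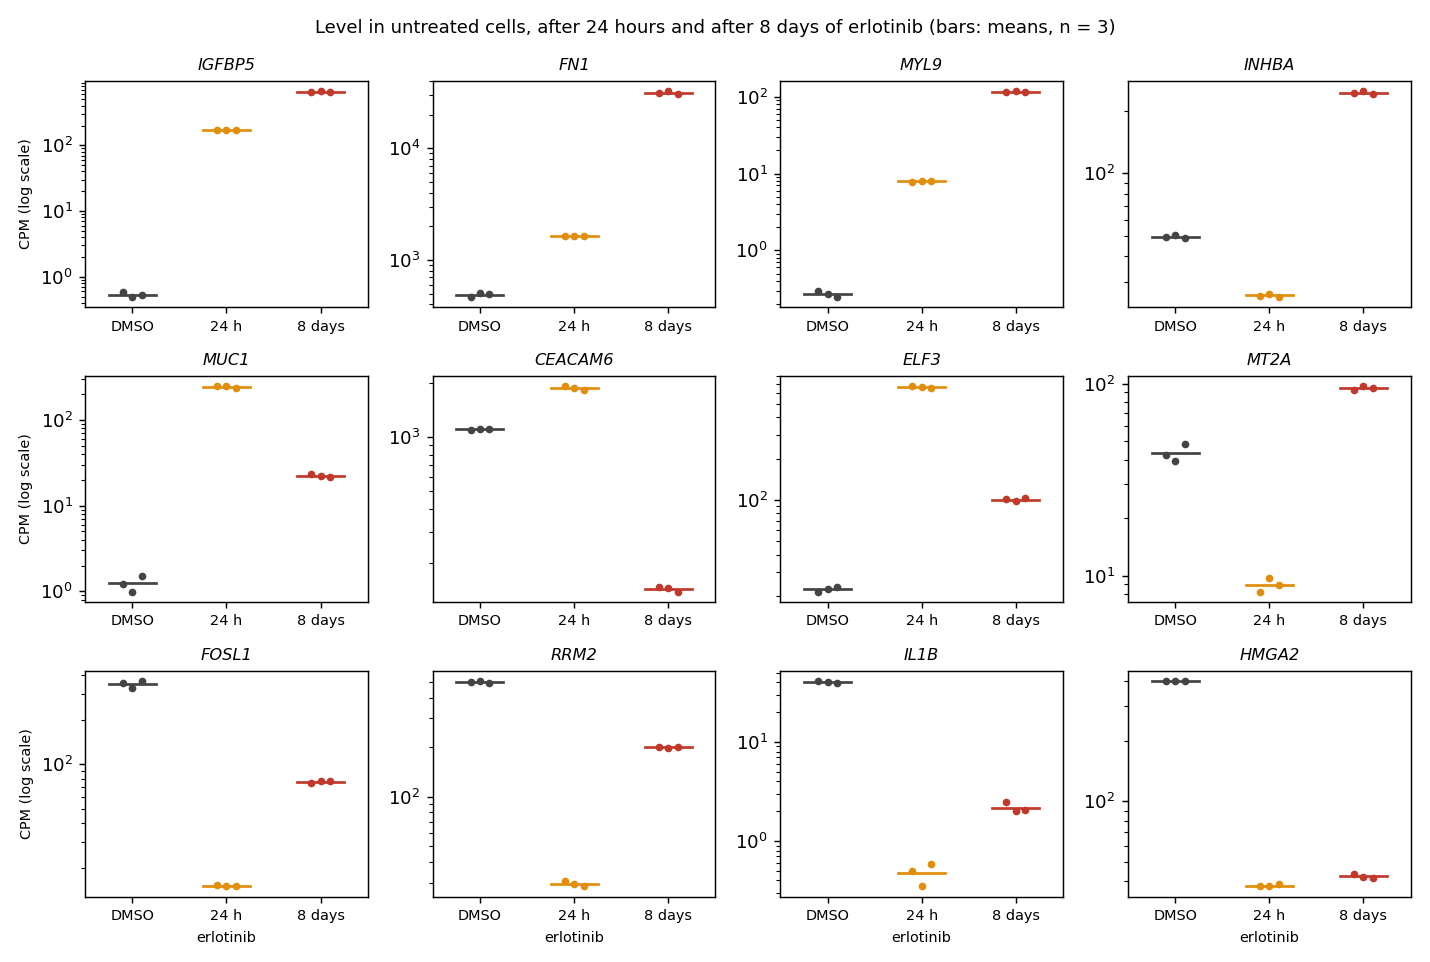
Level of 12 genes in CPM on a log axis in parental_DMSO, after 24 hours and after 8 days (DTP) of 1 µM erlotinib, with a point per library and a bar at the mean of 3. IGFBP5, FN1 and MYL9 climb at both steps, MUC1 and ELF3 peak at 24 hours, and FOSL1 and RRM2 are lowest at 24 hours.

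A smaller share of repeat elements than of genes was called, on the same gene-read scale but with noisier values. The coefficient of variation that edgeR fitted within groups was 0.0437 for genes and 0.116 for subfamilies. It was 0.289 for families and 0.454 for classes, so these shares cannot be compared as sizes of effect. Of 1037 subfamilies tested 221 were higher and 191 lower in DTP (21.3% and 18.4%; edgeR, adjusted p under 0.05), of 56 families 15 and 13 (26.8% and 23.2%), and of 18 classes 5 and 5 (27.8% each). With spike-in reads as library sizes these splits became 267 higher and 120 lower subfamilies, 17 and 3 families, and 5 and 2 classes. Of 17 L1PA names, which span young and older primate L1 subfamilies, 12 were higher and 2 lower. L1PA2 had 137, 137 and 133 CPM in DTP and 71.6, 76.2 and 71.6 CPM in parental_DMSO (0.89 ± 0.030). L1HS had 74.2, 74.5 and 70.4 CPM in DTP and 51.8, 54.6 and 52.3 CPM in parental_DMSO (0.47 ± 0.031; adjusted p = 1.03e-07 by edgeR in these 6 libraries and 0.0590 in a fit of all 18). The L1 family as a whole did not pass (0.049 ± 0.035). Alu names went the other way, with 23 of 41 lower and 1 higher. The Alu family had 2359.8, 2241 and 2282 CPM in DTP and 2717, 2629 and 2558 CPM in parental_DMSO (-0.20 ± 0.035), a fall that did not pass with spike-in scaling (-0.12).

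Among repeats of at least 1 CPM, the brain cytoplasmic RNA repeat BC200 fell (-1.67 ± 0.13), as did LTR10B (-4.62 ± 0.26) and MER65-int (-2.01 ± 0.16), at 6.44, 3.69 and 6.67 CPM in DTP and 24.4, 22.2 and 20.8 CPM in parental_DMSO. MST-int rose (1.89 ± 0.051), at 24.9, 24.4 and 24.6 CPM in DTP and 6.61, 6.30 and 7.02 CPM in parental_DMSO, and the internal HERV15-int rose by 2.69 ± 0.15. Centromeric satellites rose as a family, at 21.2, 21.0 and 21.3 CPM in DTP and 9.89, 10.1 and 9.54 CPM in parental_DMSO (1.10 ± 0.027), with the alpha satellite ALR/Alpha at 1.20 ± 0.076. LTR7 rose (1.15 ± 0.049) while its relative LTR7Y fell (-0.92 ± 0.049), 2 names whose reads may be shared. Ribosomal RNA took 32.3% to 60.7% of repeat reads in DTP and 28.7% to 71.5% in parental_DMSO, and repeats were scaled by gene reads.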

How the data were processed

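Total RNA of PC9 cells was DNase-treated, given ERCC spike-in and sequenced as polyA-selected libraries, per the labels' protocols. The authors deposited tables of expected counts (estimated reads per gene, spike-in, repeat subfamily, family and class); the submitters' processing notes name Salmon, with no version. Genome build and annotation were not given in the sources used here. Salmon divides reads between similar transcripts, which makes values of near-identical genes and repeats uncertain. The 5 tables each held 3 columns that matched no sample and were not used. Of 30727 gene IDs 27814 matched a symbol, and the others held 0.244% of gene reads.

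Expected counts were rounded. Genes were tested with edgeR 4.0.16 (R 4.3.3): filterByExpr, TMM, then the quasi-likelihood test on 3 DTP and 3 parental_DMSO libraries, Benjamini-Hochberg adjustment over all genes, and the test against a fold of 1.5 (glmTreat). Log2 fold changes are DTP over parental_DMSO and are given ± the standard error. CPM values use TMM sizes and are not divided by length, so they compare samples and not genes. Repeats used the library sizes of the genes. Libraries held 76101016 to 84650552 gene reads, and counting error weighs more in genes of low CPM, whose standard errors are larger. On simulated data of the same depth the quasi-likelihood test without a fold limit found 48 of 50 genes changed 1.5-fold, with 8 false calls among 15847 genes. The test against a fold of 1.5 was not simulated. Only 200 genes, drawn from those with enough reads, were changed there, whereas most genes were called in the data. These rates therefore need not carry over.

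Members and lists were chosen with earlier results of these data known. Named genes were, per list, up to 8 called members with the largest change (at 5 CPM or more where higher, with groups that did not overlap), up to 3 abundant members that did not pass, and the 20 higher and 20 lower genes outside the interferon list at 10 CPM or more, by the same test of overlap; the text gives a part of them, and INHBB, ITGB1, ITGB5, NPAS2, CLOCK, BMAL2, TIMELESS and the grouping of genes by time course were chosen after their values were seen. The files do not pair repeat names with classes, so up to 5 subfamilies per direction were taken over all names, and other repeat names were chosen after their values were seen. Promoter windows came from RefSeq (GRCh38.p14), with the first listed start kept for each gene. Alternatives were DESeq2 1.42.0, its size factors, spike-in or repeat reads as library sizes, other filters, a fit of all 18 libraries, a replicate block and each library left out. Some results are not reported here.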

Additional observations from a re-analysis of the deposited data

How the results depend on the processing

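The count of 12995 called genes ranged from 10376 to 13702 over the other alternatives and was 5839 when tested against a fold of 1.5; leaving out a replicate gave 12647 to 13079. Called repeats depended more on the setting, from 412 subfamilies, 28 families and 10 classes: the fit of all 18 libraries gave 152 subfamilies and 10 families, the fold test 88, 3 and 2 (classes last), repeat reads as library sizes 20, 0 and 0, where 3 families and 2 classes had an unadjusted p under 0.05. Repeat reads other than rRNA, chosen after seeing the data, gave 420, 26 and 12, and leaving out a replicate gave 13 to 24 families. The cause of these shifts was not tested. The family CR1, at -0.08, was 0.0047 with spike-in scaling and 0.0073 with repeat reads, a reversed sign.

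With the library letter as a replicate block 12768 genes, 393 subfamilies, 13 families and 8 classes were called. Same-letter deviations from the group means correlated at 0.06, -0.19 and -0.11, and those of DTP b and parental_DMSO c at 0.21. With 3 libraries per group such values cannot show whether the letters pair libraries. Spike-in sizes gave 7272 higher and 5461 lower genes and moved the median of all genes to 0.11. List medians near 0 (HOX, KLF and SP, keratins, forkhead, lineage and SMAD-TEAD lists, and metabolic genes as a whole) changed sign in some alternatives, and no direction is given for them. Of 342 called named genes 32 lost their call in some alternative, 7 of them (CLDN7, EGFL7, TCF4, ATP6, COX2, COX3 and CYTB) outside the fold test.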
